A study of Mus musculus with 4 samples.

Results

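The glutathione system and the defense against ferroptosis were examined in induced regulatory T (iTreg) cells that had been cultured with ferrous sulfate. The group comprised 10 genes picked by symbol (Slc7a11, Gclc, Gclm, Gss, Gsr, Gpx1, Gpx4, Gstm1, Acsl4 and Aifm2), and all 10 were found among the 47729 gene rows of the count table. CD4 T cells of C57BL/6 mice (labelled spleen, and naive cells of spleen and lymph nodes per the study's methods) were activated with anti-CD3 and anti-CD28. Every culture contained rhTGF-β at 5 ng/mL, rhIL2 at 100 U/mL, antibodies to IFNγ and IL4 at 5 µg/mL each, and, per the methods, β-mercaptoethanol, a thiol. The FeSO4 group received 50 µM FeSO4 and the Mock group PBS, in both cases for 4 days, and 2 libraries of total RNA were sequenced per group. The labels name no genetic change in either group, and they name no sort of the cultured cells for Foxp3 before RNA was taken.

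Glutathione is a small thiol made from cysteine, glutamate and glycine. Cells import cystine, make glutathione by a pair of enzyme steps, spend it to reduce peroxides or to tag foreign compounds, and recover the oxidized form with NADPH. Ferroptosis is a form of cell death in which iron drives the peroxidation of polyunsaturated membrane lipids, and the selenoenzyme Gpx4 is its main brake in T cells, regulatory T cells included.

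The libraries held between 35183187 and 40859178 reads in gene rows. The summed level of 6 T cell and Treg markers was 3555 to 3816 CPM (read counts scaled by TMM-adjusted library size), and that of 4 B cell markers was 2.38 to 3.38 CPM, so T cell transcripts prevailed in every library. Foxp3 itself was at 587 and 693 CPM in Mock and lower in FeSO4, at 376 and 472 CPM, and its part in the values below was not tested. The 5 myeloid markers summed to 6.24 CPM in Mock replicate 1, of which Lyz2 made up 4.04 CPM, and to 1.84 to 2.49 CPM in the others. NK cell markers summed to 2.13 to 3.99 CPM with Ncr1 and Klrb1c at 0, and CD8 markers to 9.04 to 11.02 CPM. The erythroid sum, nearly all Hba-a1, was 37.6 and 32.6 CPM in FeSO4 against 24.9 and 19.8 CPM in Mock. Since these are bulk samples, fewer cells of a type and less RNA per cell cannot be told apart.

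Of the 10 genes, 9 had enough reads to be tested, and 3 rose in FeSO4: Gclm, the regulatory subunit of the first enzyme of glutathione synthesis, by 51.4%, Acsl4, which loads polyunsaturated fatty acids onto coenzyme A, by 43.5%, and Gsr, which recovers glutathione, by 31.0%. Of all 13732 genes tested, 10.9% were called higher and 9.17% lower at an adjusted p under 0.05 (edgeR's quasi-likelihood test). None of the 9 was called lower by that test, while 1 of them, Aifm2, was lower at an unadjusted p under 0.05, and scaling by library size alone called 1 lower, Gpx1. That scaling called 1810 of all 13732 genes lower in place of 1259, with a median log2 fold change of -0.066. At the study's own threshold (unadjusted p under 0.05 with a log2 change of 0.5 or more in size), 2 were higher (Gclm and Acsl4) and 1 was lower (Aifm2). Of all genes tested 10.4% passed it, 4.67% as higher and 5.73% as lower. The count of lower genes was 0 with DESeq2, with lowly counted genes kept, with the older edgeR fit and without Mock replicate 1, Mock replicate 2 or FeSO4 replicate 1, and the count of higher genes was 1 with libraries scaled by size alone and without any of these 3 libraries. The groups did not overlap in 7 of the 9 tested genes, 5 of them with FeSO4 above and 2 with FeSO4 below. They did not overlap in 59.5% of all genes tested (30.1% above and 29.4% below). In Slc7a11, which was not tested, the groups overlapped. The median log2 fold change of the 9 genes was 0.16, and that of all genes tested was near 0 (-0.000524). The 10 genes were chosen with earlier results of these data known, so these shares and medians are a description and not a test.

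**Figure D1:**
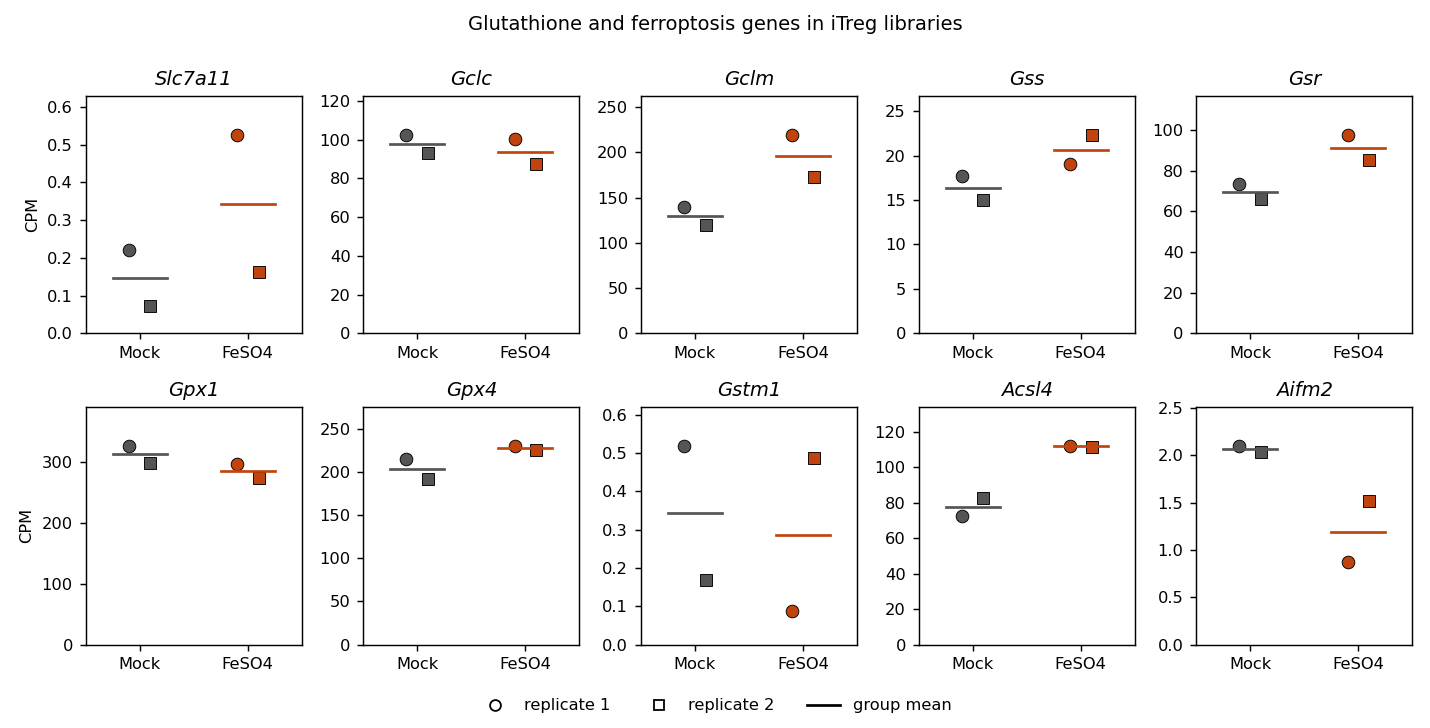
Level of each of the 10 genes in each library, 1 panel per gene, in CPM on a linear axis that starts at 0, with a circle for replicate 1, a square for replicate 2 and a line at the group mean. Gclm, Gsr and Acsl4 have both FeSO4 points above both Mock points, whereas the points of Slc7a11, Gclc and Gstm1 overlap.

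Few reads came from Slc7a11. The gene (ENSMUSG00000027737, chr3:50364936-50499087, minus strand, GRCm38.p6) encodes the transport chain of the cystine and glutamate exchanger xCT. In the order of replicates 1 and 2, used throughout, it had 9 and 3 reads under Mock against 18 and 6 reads under FeSO4, or 0.222 and 0.0717 CPM against 0.525 and 0.162 CPM. FeSO4 replicate 1 was the highest library and the groups overlapped. Counting error alone spanned 0.332 to 0.831 CPM in that library and 0.0244 to 0.211 CPM in Mock replicate 2 (95% Wilson intervals). The gene fell below the filter on low counts. When every gene with at least 1 read was tested, its log2 fold change was 1.19 ± 0.90 (SE) with an adjusted p of 0.522, so a difference was not detectable at this depth.

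The promoters that RefSeq gives for these genes (GRCm38.p6, 250 bases before to 50 after a transcription start) were searched on both strands for 2 motifs. TGACNNNGC is the core of the antioxidant response element, which Nrf2 (Nfe2l2) is known to bind, and TGATGNAA is the core of the amino acid response element, which Atf4 is known to bind. The searches overlapped in no gene: the first motif was met in Gclm only and the second in Slc7a11 only, among the 8 genes with a promoter entry (Slc7a11, Gclm, Gss, Gpx1, Gpx4, Gstm1, Acsl4 and Aifm2). The 3 matches are shown because Gclm changed and Slc7a11 is the textbook target of the second motif. Each is given on the gene's own strand with the motif in capitals, and a motif in reverse complement lies on the opposite strand.
Slc7a11, first match: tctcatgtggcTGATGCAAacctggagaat
Slc7a11, opposite strand: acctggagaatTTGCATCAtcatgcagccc
Gclm, opposite strand: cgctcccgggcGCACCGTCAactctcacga
The Slc7a11 stretches were at chr3:50443661-50443690 and chr3:50443642-50443671 (minus strand), with their motifs at -66 and -47 of a start that lies inside the annotated gene. The Gclm stretch was at chr3:122245412-122245441 (plus strand), with its motif at -134 of a start that also lies inside the annotated gene. By the same search 12.4% of all 32851 promoters held TGACNNNGC and 3.97% held TGATGNAA. A match is a string of letters, and binding was not measured.

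Glutamate-cysteine ligase joins glutamate to cysteine, the first and rate-limiting step, and of its subunits Gclm was called and Gclc was not. Gclc (ENSMUSG00000032350, chr9:77754535-77794489, plus strand), the catalytic subunit, was at 102 and 93.2 CPM in Mock and at 100.2 and 87.3 CPM in FeSO4. Its groups overlapped, and its log2 fold change was -0.06 ± 0.08 (SE), with a 95% interval of -0.23 to 0.11 (adjusted p = 0.647, edgeR). Gclm (ENSMUSG00000028124, chr3:122245487-122267215, plus strand), the modifier subunit that raises the activity of the catalytic one, was at 139 and 119 CPM in Mock and at 219 and 172 CPM in FeSO4. The lower FeSO4 library stood above the higher Mock library. The rise was 0.60 ± 0.10 on the log2 scale (0.40 to 0.80, adjusted p = 0.000332, edgeR), and leaving out any 1 library gave 0.42 to 0.76. With lowly counted genes kept in the fit the fold change was the same but the adjusted p was 0.0635. Of the Gclm exons, 296 bases overlap Gm17494, a non-coding gene on the opposite strand, and the strand setting of the counting was not given in the sources used here.

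The ratio of the subunits within a library does not depend on how libraries are scaled. The Gclm count was 1.36 and 1.28 times the Gclc count in Mock and 2.18 and 1.97 times in FeSO4, with no overlap. On the log2 scale the ratio was 0.40 ± 0.06 (SD, n = 2) in Mock and 1.05 ± 0.10 (SD, n = 2) in FeSO4, a 1.57-fold difference. Per length of exon, the modifier subunit was below the catalytic one in Mock (0.905 and 0.852) and above it in FeSO4 (1.46 and 1.31). This ratio and the 2 given further on were chosen after the levels had been seen, and no test was run on them.

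**Figure D2:**
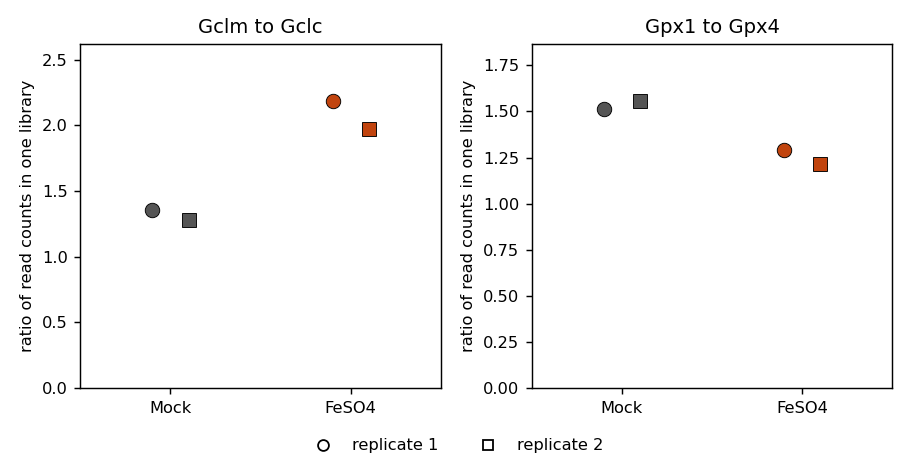
Ratio of the read counts of 2 genes within each library, on a linear axis that starts at 0, for Gclm to Gclc and for Gpx1 to Gpx4, with a circle for replicate 1 and a square for replicate 2. FeSO4 lies above Mock for Gclm to Gclc (1.97 and 2.18 against 1.28 and 1.36) and below it for Gpx1 to Gpx4 (1.21 and 1.29 against 1.51 and 1.55).

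Gss (ENSMUSG00000027610, chr2:155563181-155592810, minus strand), glutathione synthetase, adds glycine in the closing step of synthesis. It was at 17.7 and 15.04 CPM in Mock and at 19.0 and 22.3 CPM in FeSO4, with FeSO4 above Mock but only narrowly so in FeSO4 replicate 1. The log2 fold change of 0.34 ± 0.13 (0.07 to 0.61) missed the threshold (adjusted p = 0.0709, edgeR). Without FeSO4 replicate 1 it was 0.45 with an adjusted p of 0.034, without FeSO4 replicate 2 it was 0.22 (adjusted p = 0.408) and without Mock replicate 2 it was also 0.22 (adjusted p = 0.365). In the annotation, 936 exon bases of Gss overlap other genes, among them the opposite-strand gene Acss2, whose own log2 fold change was -0.10 ± 0.11 (adjusted p = 0.554).

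Gsr (ENSMUSG00000031584, chr8:33653238-33698162, plus strand), glutathione reductase, turns the oxidized dimer back into glutathione with NADPH. It was at 73.2 and 66.0 CPM in Mock and at 97.3 and 85.1 CPM in FeSO4, without overlap. It rose by 0.39 ± 0.08 on the log2 scale (0.22 to 0.56, adjusted p = 0.00326, edgeR), and by 0.29 to 0.48 when any 1 library was left out. With lowly counted genes kept in the fit, the adjusted p was 0.0752 at the same fold change.

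The peroxidases, which spend glutathione, were the most abundant genes of the group. Gpx1 (ENSMUSG00000063856, chr9:108339080-108340342, plus strand), the cytosolic enzyme that reduces hydrogen peroxide, was at 326 and 299 CPM in Mock and at 296 and 274 CPM in FeSO4. FeSO4 replicate 1 lay just under Mock replicate 2. The log2 fold change was -0.13 ± 0.07 (-0.27 to 0.01, adjusted p = 0.186, edgeR), and with libraries scaled by size alone it was -0.20 with an adjusted p of 0.0424. It was -0.078 without Mock replicate 1 and -0.076 without FeSO4 replicate 2, the weakest of the values with 1 library left out, and -0.19 without either of the other libraries. The red cell transcript Hba-a1 stood higher in FeSO4 (37.5 and 32.5 CPM against 24.5 and 19.6 CPM), and red cells also express Gpx1. The part of red cells in these values was not tested.

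Gpx4 (ENSMUSG00000075706, chr10:80047166-80056439, plus strand) reduces peroxides of membrane phospholipids. It was at 215 and 192 CPM in Mock and at 230 and 226 CPM in FeSO4, with FeSO4 above by a small margin. The log2 fold change was 0.16 ± 0.07 (0.02 to 0.30), an increase of 11.9% that missed the threshold (adjusted p = 0.103, edgeR). With a block for the replicate number in the same test it was also 0.16, but it passed (adjusted p = 0.0387). Without Mock replicate 1 it was 0.23 with an adjusted p of 0.036, without Mock replicate 2 it was 0.084 with an adjusted p of 0.476, and the adjusted p ranged from 0.036 to 0.476 over all alternatives. Within a library, the Gpx1 count was 1.51 and 1.55 times the Gpx4 count in Mock and 1.29 and 1.21 times in FeSO4, which put the ratio 0.29 lower on the log2 scale.

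Gstm1 (ENSMUSG00000058135, chr3:108012250-108017973, minus strand), a transferase that attaches glutathione to electrophiles, was near the detection limit. It had 21 and 7 reads in Mock and 3 and 18 reads in FeSO4. A floor of 3 reads, about the 95% upper limit of the expected count where 0 reads are seen, corresponds to 0.0717 to 0.0876 CPM. The log2 fold change was -0.20 ± 0.78 (-1.86 to 1.45, adjusted p = 0.893, edgeR). Its sign turned without Mock replicate 1 (0.79) and without FeSO4 replicate 1 (0.51). The gene lies among similar copies and reads with several alignments were not counted, so its level is uncertain. Of these copies Gstm4 led with 336 and 267 reads in Mock and 227 and 237 in FeSO4 (log2 fold change -0.17, adjusted p = 0.585), Gstm5 had 24 reads in Mock replicate 1 and at most 4 elsewhere, and Gstm2, Gstm3, Gstm6 and Gstm7 had at most 1 read in a library.

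Acsl4 (ENSMUSG00000031278, chrX:142317993-142390802, minus strand) activates arachidonic acid and related fatty acids, and so supplies the lipids that ferroptosis oxidizes. It was at 72.7 and 82.8 CPM in Mock and at 111.6 and 111.5 CPM in FeSO4. Both FeSO4 libraries lay well above both Mock libraries. It rose by 0.52 ± 0.08 on the log2 scale (0.36 to 0.68, adjusted p = 0.000151, edgeR), by 0.42 to 0.62 when any 1 library was left out, and it kept its call under every alternative run (adjusted p of at most 0.0327). The Acsl4 count was 0.338 and 0.430 times that of Gpx4 in Mock and 0.486 and 0.493 times in FeSO4, a 1.28-fold higher mean ratio.

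Aifm2 (ENSMUSG00000020085, chr10:61715263-61739260, plus strand) encodes Fsp1, which reduces ubiquinone and protects membranes without glutathione. It had 85 reads in each Mock library and 30 and 56 in FeSO4, or 2.09 and 2.03 CPM against 0.876 and 1.51 CPM. Both FeSO4 libraries were below Mock and differed among themselves. The log2 fold change was -0.77 ± 0.36 (-1.54 to -0.01, unadjusted p = 0.0481, adjusted p = 0.151, edgeR), and its place past the study's threshold was lost under the alternatives named above. Leaving out FeSO4 replicate 1 gave -0.45, and leaving out FeSO4 replicate 2 gave -1.23. Its exons overlap 244 bases of H2afy2 on the opposite strand, a gene of like level (1.95 and 1.39 CPM in Mock against 0.846 and 0.594 CPM in FeSO4, log2 fold change -1.21 ± 0.43, adjusted p = 0.0533). Reads in those 244 bases cannot be assigned to one of the genes without strand, while the rest of the 4121 exon bases of Aifm2 is its own.

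**Figure D3:**
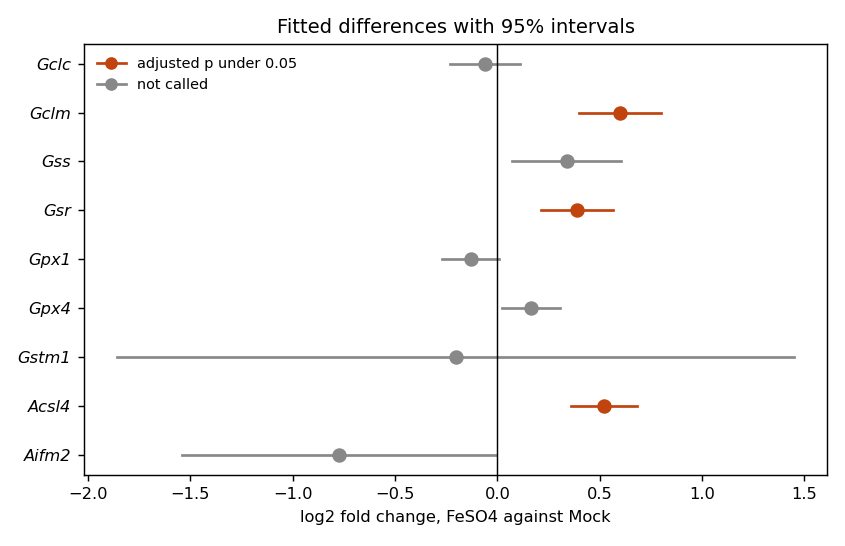
Log2 fold change of FeSO4 against Mock for the 9 tested genes (points) with 95% confidence intervals from edgeR (lines), coloured where the adjusted p was under 0.05 and grey otherwise. The intervals of Gclm (0.40 to 0.80), Acsl4 (0.36 to 0.68) and Gsr (0.22 to 0.56) lie above 0, and that of Gstm1 is the widest.

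Levels of different genes were compared per kilobase of exon. In Mock the mean was 369 CPM per kilobase for Gpx1 and 122 for Gpx4. It was 28.6 for Gclc, 25.3 for Gsr and 25.1 for Gclm, and the libraries of Gsr and Gclm overlapped, so these neighbours did not differ beyond their spread. Acsl4 (14.4), Gss (2.86), Aifm2 (0.501), Gstm1 (0.246) and Slc7a11 (0.0131) followed. In FeSO4 the order began alike with Gpx1 (337) and Gpx4 (136), but Gclm (38.1) and Gsr (33.1), which overlapped, stood above Gclc (27.4). Acsl4 was at 20.6 and Gss at 3.61, and Aifm2 (0.290) and Gstm1 (0.206) overlapped above Slc7a11 (0.0306). The exon lengths are those of GENCODE M1, where 14930 of the 47729 counted IDs had no symbol, so the levels are approximate.

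The other genes of the pathway were taken as 7 lists of 115 genes, of which 86 were tested. The lists were chosen with earlier results of these data known, so the shares that follow are a description and not a test. Of these 86, 19 were higher (22.1%) and 1 was lower (1.16%), beside 10.9% and 9.17% of all genes tested, and their median log2 fold change was 0.11. All values that follow are log2 fold changes ± SE with edgeR's adjusted p. With lowly counted genes kept in the fit, several genes named below were no longer called. They were Ggt5, Abcc1, Abcc5, Gstcd, Esd, Lrp8, Acsl5, Nqo1 and Hspa5 (adjusted p = 0.0533 to 0.143), and also Cyb5r1 and Keap1.

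Of 13 tested genes of cysteine supply and glutathione breakdown, 3 rose (median 0.26), and 5 were called higher without FeSO4 replicate 2. Slc3a2, the heavy chain that carries xCT and other amino acid transporters to the membrane, was at 135 and 137 CPM in Mock and at 174 and 170 CPM in FeSO4, a rise of 0.34 ± 0.06 (adjusted p = 0.00142). The shared chain of the exchanger was abundant where Slc7a11 itself was near 0. Ahcy, which splits S-adenosylhomocysteine on the route from methionine to cysteine, rose by 0.58 ± 0.06 (adjusted p = 8.16e-06). Cbs and Cth, later on that route, were low and not called, and they were named after their values were seen. Cbs had 2 reads in FeSO4 replicate 2 and 0 elsewhere. Cth had 34 and 18 reads in Mock and 68 and 24 in FeSO4, with overlap (adjusted p = 0.204). Ggt5, a cleaving enzyme of extracellular glutathione conjugates, rose by 0.76 ± 0.22 (adjusted p = 0.0206) but was low (3.59 to 8.46 CPM), and it was no longer called without Mock replicate 2 (0.46) or without FeSO4 replicate 1 (0.66).

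Of 6 tested transporters, Abcc1, which exports glutathione and its conjugates, rose by 0.41 ± 0.08 (adjusted p = 0.00236), and Abcc5, another exporter of the same family, fell by 0.39 ± 0.10 (adjusted p = 0.00995), a call that was lost without Mock replicate 1 or without FeSO4 replicate 1. Of 11 tested transferases, 1 rose: Gstcd, by 0.28 ± 0.09 (adjusted p = 0.0347), a call lost without any 1 of the 4 libraries, with DESeq2 (adjusted p = 0.0749) and with libraries scaled by size alone (adjusted p = 0.0976). Of 12 tested genes of the other peroxidases, glutaredoxins and glutathione-using enzymes, 2 rose. Glrx, the cytosolic glutaredoxin that frees proteins from bound glutathione, was at 18.0 and 16.9 CPM in Mock and at 26.2 and 27.4 CPM in FeSO4 (0.62 ± 0.11, adjusted p = 0.000707). Esd, which hydrolyses S-formylglutathione, rose by 0.25 ± 0.07 (adjusted p = 0.0192), a call lost without Mock replicate 1, without Mock replicate 2, without FeSO4 replicate 2 or with libraries scaled by size alone (adjusted p = 0.0758). Selenoprotein synthesis, on which the glutathione peroxidases depend, had 1 of 12 tested genes higher and the others not called: Lrp8, a receptor that takes up selenoprotein P, at 41.5 and 46.4 CPM in Mock and at 71.1 and 57.8 CPM in FeSO4 (0.55 ± 0.10, adjusted p = 0.000855).

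Of 13 tested genes of membrane lipid substrates and oxidation, 5 rose (median 0.18), and 3 were called higher without FeSO4 replicate 1. Acsl3, which activates monounsaturated fatty acids, went from 24.6 and 26.7 CPM in Mock to 53.9 and 56.4 CPM in FeSO4, a rise of 1.10 ± 0.09 (adjusted p = 3.18e-07), beside 0.52 ± 0.08 for Acsl4. Lpcat3, which places polyunsaturated chains into phospholipids, rose by 0.46 ± 0.08 (adjusted p = 0.000792). Mboat1, another acyltransferase of membrane lipids, rose by 0.40 ± 0.08 (adjusted p = 0.00294), and Acsl5, a further acyl-CoA synthetase, by 0.27 ± 0.06 (adjusted p = 0.00644), the latter not called without FeSO4 replicate 1. The fifth was Cyb5r1, an oxidoreductase known to promote lipid peroxidation (0.32 ± 0.11, adjusted p = 0.0497), which was named after its value was seen. Its call was lost with DESeq2, with voom, with each other scaling, with both other filters and without any 1 library. The list holds genes that are known to favour ferroptosis (Acsl4's partner Lpcat3, and Cyb5r1) beside genes known to oppose it (Acsl3, Mboat1).

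Of 19 tested genes of ferroptosis defense outside glutathione, 6 rose (median 0.18). Nqo1, a quinone reductase and a classic Nrf2 target, was at 72.1 and 59.8 CPM in Mock and at 129 and 90.9 CPM in FeSO4 (0.74 ± 0.12, adjusted p = 0.000465). Replicate 1 was the higher library in both groups, as it was for Gclm and Gsr, and without FeSO4 replicate 1 the rise in Nqo1 was 0.46 (adjusted p = 0.000189). Nfe2l2, which encodes Nrf2 itself, rose by 0.39 ± 0.08 (adjusted p = 0.00199). Keap1, the repressor that marks Nrf2 for degradation, is also counted in this list and rose by 0.22 ± 0.07 (adjusted p = 0.0426), and it was named after its value was seen. The call of Keap1 was lost with libraries scaled by size alone, without Mock replicate 1 and without FeSO4 replicate 2. The chaperone Hspa5 rose by 0.30 ± 0.06 (adjusted p = 0.00322).

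**Figure D4:**
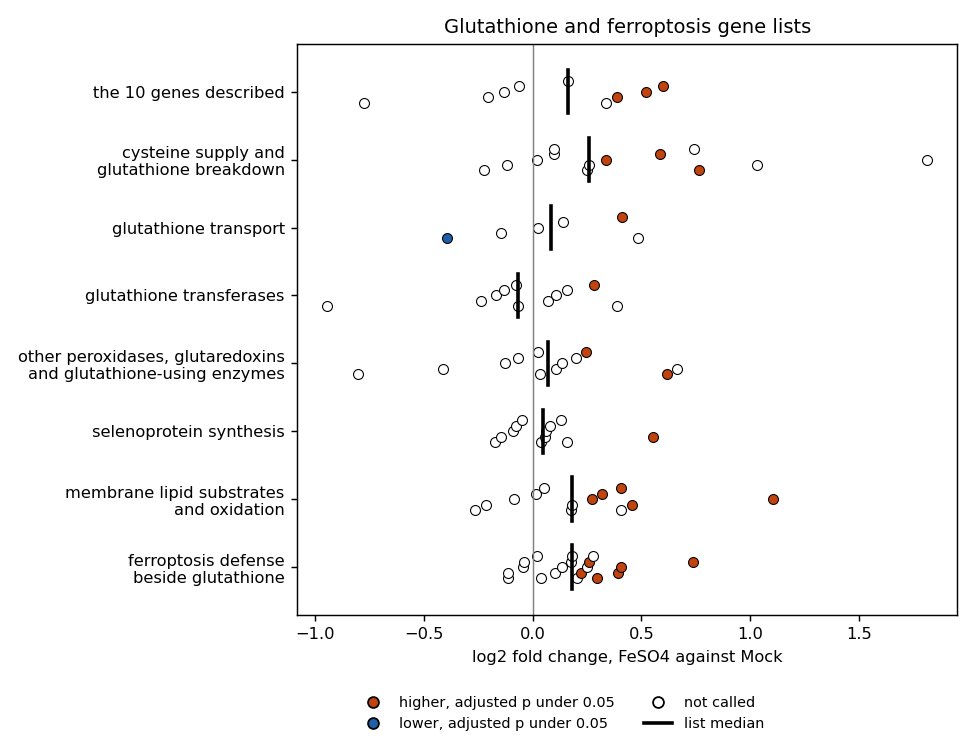
Log2 fold change of every tested gene in each list, 1 point per gene, coloured where the adjusted p was under 0.05, with a bar at the list's median. Called points lie to the right of 0 in every list, with 6 in the defense list and 5 in the lipid list, and the 1 called point to the left is Abcc5.

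Mock replicate 1 differed from the other libraries in several genes that are low elsewhere. Among the pathway lists, 5 genes had at least 20 reads there and at most 10 in any other library: Gpx2 (125 reads against 0 in each of the others), Dpep1 (37 against 0), Mgst1 (29 against 0), Gsta4 (29 against 5 to 8) and Gstm5 (24 against 1 to 4). They were chosen after their values had been seen. The myeloid marker Lyz2 had 164 reads in that library, 8 in the other Mock library and none under FeSO4. The other myeloid markers did not share this size of difference. Csf1r had 7 reads in Mock replicate 1 and 0 elsewhere, and Itgam had 2 against 0 to 1. Cd68 had 72 reads against 50 to 68, and Adgre1 was lowest in Mock replicate 1 (8 reads against 12 to 29). The part of other cells in these values was not tested. Without that library 4 of the 9 genes were called higher, Gpx4 in addition to Gclm, Gsr and Acsl4, in a fit that called 1097 of all 13732 genes higher in place of 1491.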

How the data were processed

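Total RNA (RNeasy plus) of 4 cultures was sequenced from Illumina libraries. The authors deposited a table of unnormalized read counts, with 1 row per Ensembl gene. Per the labels, reads were trimmed with Trim Galore 0.6.7, aligned with STAR 2.7.9a and counted with featureCounts on mm10. The methods name mm9, STAR and DESeq, and the closing rows of the table carry the names that htseq-count gives. Strand setting and annotation are not given in the sources used here. Unassigned reads were left out of library sizes: 4.36 to 6.03% had no feature, 3.78 to 3.91% were ambiguous, 0.802 to 0.988% of low quality, 1.80 to 2.31% unaligned and 4.27 to 4.62% aligned to several places.

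Symbols were matched by Ensembl ID (32799 of 47729). Positions and promoters are those of RefSeq (GRCm38.p6), exon lengths and overlaps those of GENCODE M1 (NCBIM37). Counts were tested in R 4.3.3 with edgeR 4.0.16 (filterByExpr with a minimum count of 10 and a minimum total of 15, TMM scaling, glmQLFit without the legacy setting, quasi-likelihood F test, Benjamini-Hochberg adjustment over 13732 genes). The SE is the log2 fold change divided by the square root of F. The biological coefficient of variation was 8.24%. Per the methods the pairs of samples came from 2 independent experiments, and p-values measure the spread between these samples. Single-library intervals reflect counting error alone, since molecular identifiers are not mentioned in the labels. The fit was tested on simulated data. Alternatives were DESeq2 1.42.0, voom in limma 3.58.1, other scalings, filters and thresholds, a replicate block and each library left out. The members and lists were chosen with earlier results of these data known. All members were named, and from each other list up to 4 called genes of smallest p, of which 1 is not reported here by name.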

Additional observations from a re-analysis of the deposited data

How the results depend on the processing

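Over the alternatives, the 9 tested genes gave 115 fold changes, of which 106 kept their direction and their side of the threshold, and 17 named pathway genes gave 221, of which 197 did and 24 lost the call without changing sign. The exceptions among the 9 genes follow, and their cause was not tested unless stated. The log2 fold change of Gpx4 was called with the replicate block (0.16, adjusted p = 0.0387) and spanned 0.084 to 0.23 when 1 library was left out. That of Gpx1 was called with library size only (-0.20). Without the low-count filter (at least 1 count in any library), Gclm (0.60) and Gsr (0.39) lost their calls and members called higher fell from 3 to 1, in a fit of 22164 genes in place of 13732 that called 524 higher and 304 lower. Leaving out 1 library gave 0.22 to 0.45 for Gss, -0.16 to 0.036 for Gclc, reversed without FeSO4 replicate 2 (0.036), and -1.92 to 0.79 for Gstm1, reversed without Mock replicate 1 (0.79) and without FeSO4 replicate 1 (0.51). The lone library left in a group is then assumed to vary like the others. At the study's threshold the members higher (2) became 1 with library size only, 0 at a log2 change of 1 or more in size, and 1 to 2 with a library left out. The members lower (1) became 0 with DESeq2, without the filter, with the older edgeR fit (chosen after seeing the data) and at a log2 change of 1 or more in size, and 0 to 1 with a library left out. Members called lower (0) became 1 with library size only. Pathway genes called higher (19) became 8 without the filter. Those called lower (1) became 3 with library size only, 0 without the filter, and 0 to 2 with a library left out. Labels number the libraries 1 and 2 without saying that a number marks an experiment. Over all genes tested, deviations of same-numbered libraries were hardly correlated (0.0293), which does not settle whether they go together for the genes described here. With the replicate block the SE of each of the 9 genes was smaller, from 0.0953 to 0.0585 for Gclm and from 0.363 to 0.358 for Aifm2. The replicate block gave 1847 genes higher and 1580 lower in place of 1491 and 1259, changed no other call among the 9 genes, and called 5 genes of cysteine supply (in place of 3) and 3 transferases (in place of 1) higher. With at least 10 counts in every library Gstm1 could not be tested. Depth limits Slc7a11, Gstm1 and Aifm2, and 2 libraries per group limit all.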
